A study of Mus musculus with 12 samples.

Results

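Pre-mRNA splicing genes were followed in bulk RNA sequencing of mouse trigeminal ganglia, the sensory ganglia whose neurons supply the cornea. The set was every protein-coding gene whose symbol starts with Srsf, Hnrnp, Sf3, Prpf, Snrp, Snrnp, U2af, Cwc or Cwf19l, or with Rbm, Ddx or Dhx and a digit. In the GENCODE M21 annotation 173 genes match these symbols, 55 of them could be named in the deposited counts, and 47 of those held enough reads to be tested. The 12 libraries came from female C57BL/6J mice aged 8 weeks and formed 4 groups of 3. The injury group was sampled 2 weeks after a keratectomy, a 1.5 mm surgical wound of the corneal surface of a randomly chosen eye. The group with electrical stimulation (ES) after injury had the same wound and received 300 µA at 20 Hz for 4 min daily over 14 days. The group with ES without injury received the stimulation alone. Controls had neither wound nor stimulation. Isoflurane was given during stimulation, and the wounded animals had ketamine with xylazine and the analgesic Ethiqa XR, so these agents move with the groups. Diabetic neuropathy and KCNN channels stand in the title of the study, whereas the labels describe no diabetic animals. Neither the number of mice behind a library nor the side of the ganglion is labelled, so a p-value measures the spread among libraries, which may be technical.

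Splicing removes introns from a primary transcript and joins its exons. The U1 small nuclear ribonucleoprotein (snRNP) pairs with the 5′ splice site, U2AF reads the 3′ splice site, and U2 snRNP, with its SF3A and SF3B proteins, settles on the branch point. The U4/U6.U5 tri-snRNP then joins, the Prp19 complex helps to activate the catalytic centre, and DEAH-box and DEAD-box helicases drive the rearrangements. SR proteins and heterogeneous nuclear RNPs (hnRNPs) bind exons and introns and set which sites are used, and neurons are known for a rich use of alternative exons. The symbols are broader than splicing: many Ddx and Dhx helicases work in ribosome assembly, RNA decay or innate sensing.

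The names needed care, because the counts were made in gene intervals of one genome build while the reads lay on the coordinates of another. A gene was therefore read through the deposited interval that covered at least 100 bp of its GRCm38 exons and exons of no other gene, and the interval with most of its exon bases was used. Of the 173 genes, 58 had no interval over their exons and 60 had only intervals that were shared with another gene or too short. Of the 55 that were named, 10 were held by their own identifier. The identifiers that carry the 173 symbols in the files had a median of 1.34 counts per 1000000 counted reads (CPM), and the 55 intervals named by position had a median of 22.8 CPM. A named interval covered between 107 and 10536 exon bases of the 47 tested genes, with a median of 591, and 10 of the 47 were read through no coding base at all. CPM here is therefore no measure of transcript abundance, and levels were compared between groups only, never between genes. The 8 named genes that were too low to test were Ddx3y and Rbm31y, which are Y-linked and had no read in these female mice, and Ddx4, Ddx60, Dhx30, Rbm44, Rbm47 and Sf3b5, with at most 16 reads in any library.

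Libraries held 7952798 to 10751547 counted reads, of which 0.217% to 0.258% fell on the splicing genes. The share of counts on mitochondrial genes was 19.8% to 22.6% after injury, 16.5% to 17.3% with ES after injury, 10.4% to 14.6% with ES without injury and 22.8% to 28.7% in controls. The 6 named markers of sensory neurons (of 14 listed) summed to 5933 to 7063 CPM after injury, 6458 to 9400 CPM with ES after injury, 8959 to 10334 CPM with ES without injury and 4344 to 5262 CPM in controls. All 4 meningeal markers were named and summed to 19006 to 20285 CPM after injury, 4993 to 7483 CPM with ES after injury, 2826 to 7575 CPM with ES without injury and 5234 to 5606 CPM in controls. Schwann cell marker sums were 5487 to 7173 CPM after injury, 3658 to 5631 CPM with ES after injury, 5130.2 to 6104 CPM with ES without injury and 3121 to 4249 CPM in controls. Fibroblast marker sums were 4558 to 5059 CPM after injury, 3025 to 3426 CPM with ES after injury and 2163 to 2927 CPM with ES without injury, against 3885 to 5207 CPM in controls. For oligodendrocyte markers the sums were 515 to 965 CPM after injury, 130.0 to 369.7 CPM with ES after injury and 304 to 485 CPM with ES without injury, against 195 to 324 CPM in controls. For macrophage markers they were 162 to 191 CPM after injury, 92.4 to 109 CPM with ES after injury and 86.8 to 103 CPM with ES without injury, against 114 to 137 CPM in controls. None of these markers was at 0. The marker sums were scaled by library totals alone, without the further scaling factors (TMM) that enter the CPM of single genes below. Those factors were 0.86 to 0.91 after injury and 0.90 to 1.11 with ES after injury. They were 1.06 to 1.21 with ES without injury and 1.01 to 1.05 in controls. The part of these marker shifts in the results was not tested, and in bulk tissue fewer cells of a type and less RNA per cell cannot be told apart. Replicate 2 of ES after injury stood apart: its log CPM correlated with replicate 1 of its own group at r = 0.935. Its nearest library of another group was control replicate 2, at r = 0.969. The number of splicing genes called in each comparison that uses it is also given without it.

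The sequences of the counted stretches are shown first for 4 genes on which the results turn, since the part of a transcript that an interval covers is what was measured. Srsf3 and Cwf19l2 were lower with ES without injury than in controls, and Sf3b4 and Snrpa were higher. The lines give, 5′ to 3′ on the strand of the gene, the longest coding stretch under the interval (GRCm38, GENCODE M21; for Cwf19l2 its first 200 bases). They lie at chr17:29041207-29041293 on the plus strand for Srsf3, at chr9:3430438-3430637 on the plus strand for Cwf19l2, at chr3:96177068-96177163 on the plus strand for Sf3b4 and at chr7:27189359-27189532 on the minus strand for Snrpa. No part is in capitals.
Srsf3: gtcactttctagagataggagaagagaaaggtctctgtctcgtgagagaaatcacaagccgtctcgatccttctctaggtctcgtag
Cwf19l2: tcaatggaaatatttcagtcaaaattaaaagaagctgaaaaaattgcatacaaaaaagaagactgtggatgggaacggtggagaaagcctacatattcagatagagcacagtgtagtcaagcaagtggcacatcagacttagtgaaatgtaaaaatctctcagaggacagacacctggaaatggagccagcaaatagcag
Sf3b4: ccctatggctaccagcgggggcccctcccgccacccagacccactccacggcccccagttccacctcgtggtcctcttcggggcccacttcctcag
Snrpa: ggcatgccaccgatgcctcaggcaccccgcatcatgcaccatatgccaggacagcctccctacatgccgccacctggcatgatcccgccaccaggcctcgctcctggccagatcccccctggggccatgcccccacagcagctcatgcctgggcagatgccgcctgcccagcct
These stretches are 47.1% G or C for Srsf3, 39.0% for Cwf19l2, 70.8% for Sf3b4 and 68.4% for Snrpa. Over all counted exon bases, which also hold untranslated regions (UTRs) and exons of noncoding isoforms, the G and C content was 37.1% for Srsf3 (525 bp, 112 of them coding), 38.7% for Cwf19l2 (10536 bp, 2661 coding), 45.9% for Sf3b4 (381 bp, 96 coding) and 63.8% for Snrpa (323 bp, 263 coding). How base content went with the fold changes is described further on.

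The promoters of 4 members with calls in several comparisons are shown for the motif matches they hold. RefSeq start sites on GRCm38.p6 gave windows of 250 bases before to 50 bases after a start for 39 of the 47 genes, 47 windows in all. The lines give the bases upstream of the annotated gene start: chr17:29032410-29032627 on the plus strand for Srsf3, chr2:156180239-156180488 on the minus strand for Rbm39, chr7:27196272-27196521 on the minus strand for Snrpa and chr19:10894981-10895230 on the plus strand for Prpf19. Capitals mark matches, on either strand, to 5 motifs: the CCAAT box, GGGCGG for the GC box of Sp1, CCGGAAG for ETS factors, TATAAA for the TATA box and TGACGTCA for the cyclic AMP response element (CRE). In the lines no match overlaps another.
Srsf3: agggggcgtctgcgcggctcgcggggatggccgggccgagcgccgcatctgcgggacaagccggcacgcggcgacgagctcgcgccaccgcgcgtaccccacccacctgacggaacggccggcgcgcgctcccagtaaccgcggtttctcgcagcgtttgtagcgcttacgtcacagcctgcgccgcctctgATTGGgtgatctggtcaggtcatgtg
Rbm39: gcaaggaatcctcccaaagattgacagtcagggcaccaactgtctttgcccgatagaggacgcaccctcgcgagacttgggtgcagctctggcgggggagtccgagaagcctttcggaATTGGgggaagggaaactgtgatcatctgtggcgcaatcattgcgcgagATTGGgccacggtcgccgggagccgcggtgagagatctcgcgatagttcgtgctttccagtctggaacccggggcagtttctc
Snrpa: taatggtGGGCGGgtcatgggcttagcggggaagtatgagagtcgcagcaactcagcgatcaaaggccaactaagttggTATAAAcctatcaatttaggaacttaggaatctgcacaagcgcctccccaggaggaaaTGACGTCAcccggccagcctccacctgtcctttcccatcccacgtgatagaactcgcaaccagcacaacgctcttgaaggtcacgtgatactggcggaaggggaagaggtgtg
Prpf19: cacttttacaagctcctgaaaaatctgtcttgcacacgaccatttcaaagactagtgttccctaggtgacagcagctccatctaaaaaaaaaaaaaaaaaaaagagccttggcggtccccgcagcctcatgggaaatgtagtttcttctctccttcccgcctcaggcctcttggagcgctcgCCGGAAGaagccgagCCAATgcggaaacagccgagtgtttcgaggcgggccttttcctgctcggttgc
Srsf3 held 1 match to the CCAAT box and Rbm39 held 2. Snrpa held matches to the letters of the GC box, the TATA box and the CRE, and Prpf19 to those of ETS factors and the CCAAT box. Where a match stands from the gene start was not assessed. The TATAAA of Snrpa stands nearer to the far end of its line than to the gene start, so it is a match of letters only. Over the 47 windows of the splicing genes, CCAAT was present in 46.8%, against 37.4% of all 32851 RefSeq windows. GGGCGG was present in 57.4% against 35.7%, CCGGAAG in 25.5% against 8.86%, TATAAA in 12.8% against 13.6% and TGACGTCA in 4.26% against 1.79%. All RefSeq windows include those of genes not tested here, and windows of other tested genes were not compared. These shares therefore cannot tell whether a difference is particular to splicing genes. The share for TGACGTCA rests on few windows, and a match of letters is no measurement of binding.

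ES without injury split the splicing genes against controls. On the log2 scale Srsf3 (-1.20) and Cwf19l2 (-1.29) were lowest among the calls, and Sf3b4 (1.22) and Ddx54 (1.13) were highest. Of the 47 genes, 7 rose and 10 fell at an adjusted p under 0.05 (edgeR's quasi-likelihood test, Benjamini-Hochberg over all 13053 tested intervals), which is 36.2% of the set against 29.8% of all intervals and 32.3% of the 4769 named by position. By direction, the background was 18.2% higher and 11.7% lower. The median log2 fold change of the set was -0.14, against 0.03 over all intervals. The 2 groups did not overlap for 28 of the 47 genes, against 47.1% of all intervals. When libraries were scaled by their totals alone, 10 rose and 7 fell, and the median of all intervals moved to 0.16. Without control replicate 3, 12 genes passed, 7 higher and 5 lower, and without replicate 2 of ES without injury 13 passed, 5 higher and 8 lower. The count was highest, at 19, without replicate 3 of ES without injury or replicate 2 of ES after injury, and 10 of the 17 calls held whichever of the 12 libraries was left out. Over all intervals the calls in these leave-outs were 2668, 2640, 3836 and 4593 in the order given, against 3896 with all libraries.

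Injury also changed splicing genes in both directions against controls. Sf3b4 (1.49) and Dhx34 (1.14) were highest among the calls as log2 fold changes, and Ddx6 (-1.99) and Prpf18 (-1.15) were lowest. Of the 47 genes, 10 rose and 8 fell, which is 38.3% of the set against 31% of all intervals and 32.1% of those named by position. The background was 19.3% higher and 11.7% lower. The median log2 fold change was 0.03, equal to that of all intervals at this precision, and the groups did not overlap for 25 genes, against 52.6% of all intervals. Scaling by totals alone gave 6 higher and 10 lower and moved the median of all intervals to -0.19, and DESeq2 gave 8 higher and 10 lower. Leaving out control replicate 3, or injury replicate 2, left 11 calls, and 9 of the 18 held whichever library was left out. Over all intervals the same leave-outs left 2683 and 2465 calls, against 4046 with all libraries. Both comparisons use the same 3 control libraries, so they are not independent of each other.

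**Figure D1:**
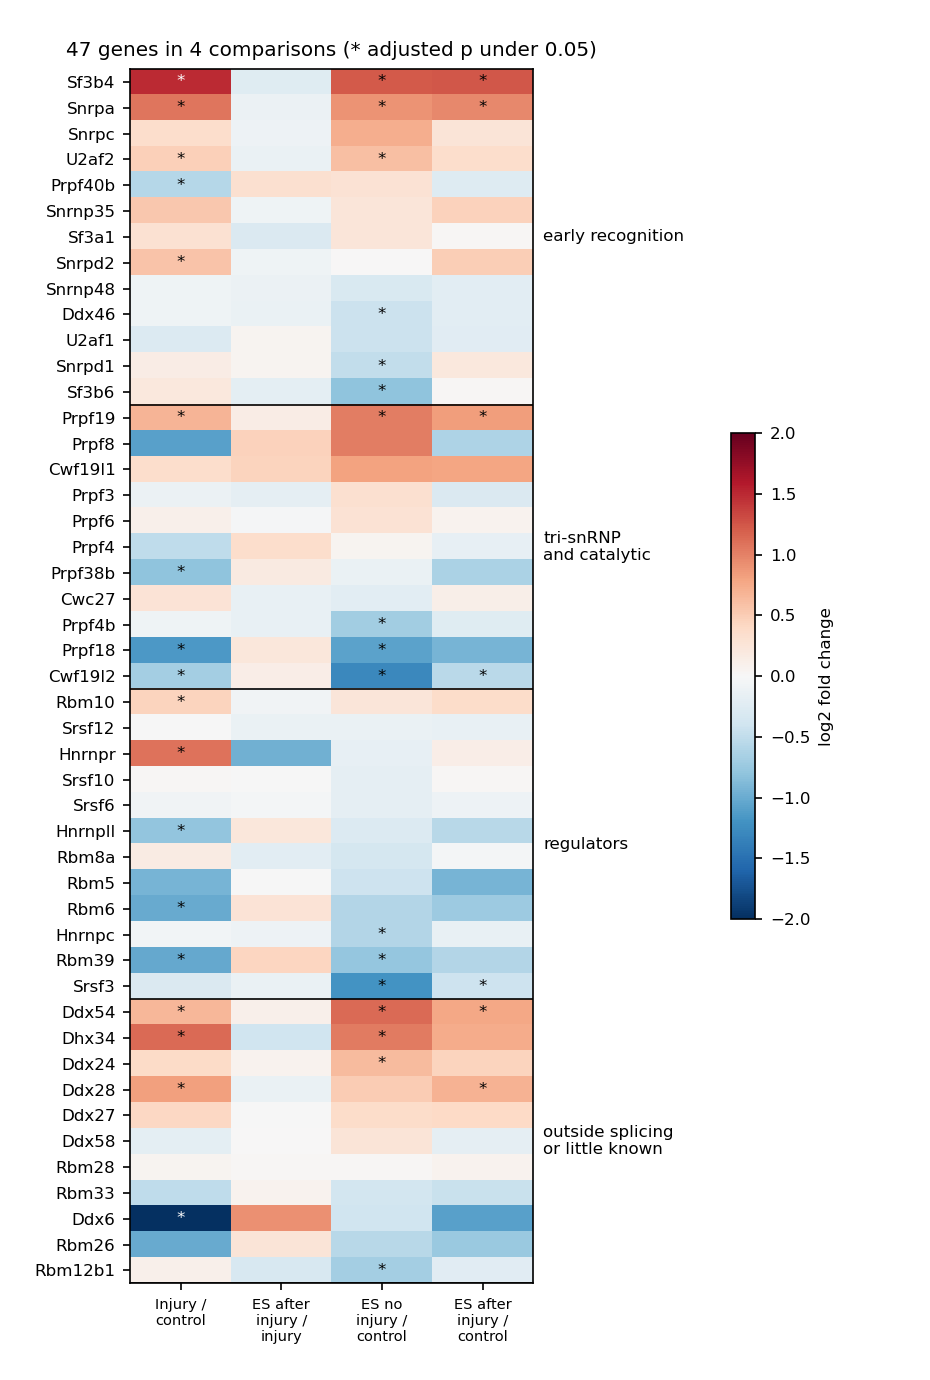
Log2 fold change of the 47 tested splicing genes (down the page, grouped by role) in 4 comparisons (across), with red for higher and blue for lower in the group named first and a star for an adjusted p under 0.05. Stars stand in the columns against controls, while the column of ES after injury against injury has none.

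With ES after injury, no splicing gene passed against injury alone. The count was 0 of 47 at an adjusted p under 0.05 in edgeR, against 1.54% of all intervals and 2.1% of those named by position, and 0 in DESeq2, while 2 genes were under an unadjusted p of 0.05. These 2 were Hnrnpr (-0.96) and Ddx6 (0.91) on the log2 scale, named after their values were seen. Without replicate 2 of ES after injury the count was also 0. The median was -0.02, against 0.00 over all intervals, and the groups did not overlap for 2 genes, against 15.2% of all intervals. Against controls, ES after injury had 5 genes higher and 2 lower, 14.9% of the set against 17.2% of all intervals (12.3% higher, 4.93% lower) and 17.5% of those named by position. The median was -0.10, against -0.02 over all intervals, and the groups did not overlap for 13 genes, against 32.8% of all intervals. That count rested on single libraries. It was 20 (8 higher, 12 lower) without replicate 2 of ES after injury, 0 without its replicate 3, and 4 without control replicate 3. With DESeq2's size factors it was 4 higher and 3 lower. The calls over all intervals moved with the same libraries left out, to 4349, 11 and 974 in that order, against 2247 with all libraries.

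Among the factors of early splice site recognition, 4 rose and 1 fell after injury, and 3 rose and 3 fell with ES without injury, of 13 tested. That is 38.5% and 46.2% of them, against 31% of all intervals after injury and 29.8% with ES without injury. The medians were 0.31 after injury and 0.24 with ES without injury. Sf3b4, an SF3B protein that contacts RNA near the branch point, had 44.3, 49.4 and 47.3 CPM after injury, 52.1, 22.1 and 44.9 CPM with ES after injury, 44.1, 40.8 and 32.6 CPM with ES without injury, against 14.7, 22.4 and 13.0 CPM in controls. All injury libraries and all libraries of ES without injury lay above every control, while replicate 2 of ES after injury lay among the controls. Its log2 fold change was 1.49 ± 0.26 (adjusted p = 0.0013) after injury, 1.24 ± 0.26 (adjusted p = 0.0064) with ES after injury and 1.22 ± 0.26 (adjusted p = 0.0023) with ES without injury (± SE, n = 3 libraries a group here and below). The call with ES after injury was lost without replicate 3 of that group.

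Snrpa, the U1 snRNP protein that binds a stem-loop of U1 RNA, had 85.5, 103 and 81.6 CPM after injury, 111, 54.6 and 84.7 CPM with ES after injury, 86.4, 94.2 and 59.8 CPM with ES without injury, against 42.9, 46.98 and 38.7 CPM in controls. All 9 libraries of the other groups lay above the 3 controls, with replicate 2 of ES after injury and replicate 3 of ES without injury nearest to them. The log2 fold changes were 1.07 ± 0.22 (adjusted p = 0.0028) after injury, 0.96 ± 0.22 (adjusted p = 0.0085) with ES after injury and 0.90 ± 0.22 (adjusted p = 0.0054) with ES without injury. The second of these was lost without replicate 3 of ES after injury and the third without replicate 2 of ES without injury. U2af2, the U2AF subunit that binds the polypyrimidine tract, had 96.7, 104 and 85.4 CPM after injury, 95.6, 79.9 and 85.7 CPM with ES after injury, 107, 108 and 94.3 CPM with ES without injury, against 65.7, 80.1 and 58.9 CPM in controls. Injury and ES without injury each lay above all controls, and ES after injury overlapped them. U2af2 rose by 0.48 ± 0.15 (adjusted p = 0.019) after injury and 0.59 ± 0.15 (adjusted p = 0.0054) with ES without injury on the log2 scale. The injury call was lost when any of 7 libraries was left out in turn, controls 1 and 3 and injury 1 and 2 among them.

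Sf3b6, Snrpd1 and Ddx46 fell with ES without injury. Sf3b6, another SF3B protein, had 152, 147 and 169 CPM after injury, 156, 111 and 143 CPM with ES after injury, 83.6, 80.7 and 66.5 CPM with ES without injury, against 139, 124 and 140.1 CPM in controls. The 3 libraries of ES without injury lay below the other 9, and the change was -0.81 ± 0.15 (adjusted p = 0.00089) on the log2 scale, against 0.21 ± 0.15 (adjusted p = 0.29) after injury. Snrpd1, a subunit of the Sm ring that encircles the spliceosomal RNAs, had 141, 145 and 148 CPM after injury, 185, 120.4 and 147 CPM with ES after injury, 103, 97.6 and 78.8 CPM with ES without injury, against 127, 119.9 and 145 CPM in controls. ES without injury lay below all controls and the other groups overlapped them. The change was -0.49 ± 0.16 (adjusted p = 0.028), a call that was lost without control 1 or 3 or without replicate 2 or 3 of ES without injury. Ddx46, the helicase that helps U2 snRNP to load, fell by 0.43 ± 0.13 on the log2 scale with ES without injury (adjusted p = 0.021), a call lost without control 2, control 3 or replicate 2 of the stimulated group.

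Snrpd2, another Sm ring subunit, had 239.8, 299 and 285 CPM after injury, 330.5, 171 and 273 CPM with ES after injury, 197, 217 and 144 CPM with ES without injury, against 184, 171 and 198 CPM in controls. The injury libraries were the ones that lay wholly above controls, with 0.58 ± 0.20 (adjusted p = 0.041), and that call was lost when any of 9 libraries was left out in turn. The same call was lost in 6 of 10 alternative ways of processing, DESeq2 among them. Prpf40b, a U1-associated protein, had 34.4, 31.4 and 34.2 CPM after injury, 32.2, 49.8 and 42.1 CPM with ES after injury, 61.2, 56.5 and 64.1 CPM with ES without injury, against 49.1, 55.5 and 44.0 CPM in controls. Injury lay below all controls, with -0.57 ± 0.16 (adjusted p = 0.014), while ES without injury lay above all controls, with a log2 fold change of 0.29 ± 0.16 (adjusted p = 0.19) that did not pass. The injury call was lost without control 2 or injury 2. Of the members that did not pass anywhere, U2af1, which reads the AG of the 3′ splice site, had a log2 fold change of -0.28 after injury and -0.43 with ES without injury. For Snrnp35 and Snrnp48, proteins of the minor U11/U12 particle, the values with ES without injury were 0.25 and -0.31, with adjusted p-values no lower than 0.19 in any comparison.

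**Figure D2:**
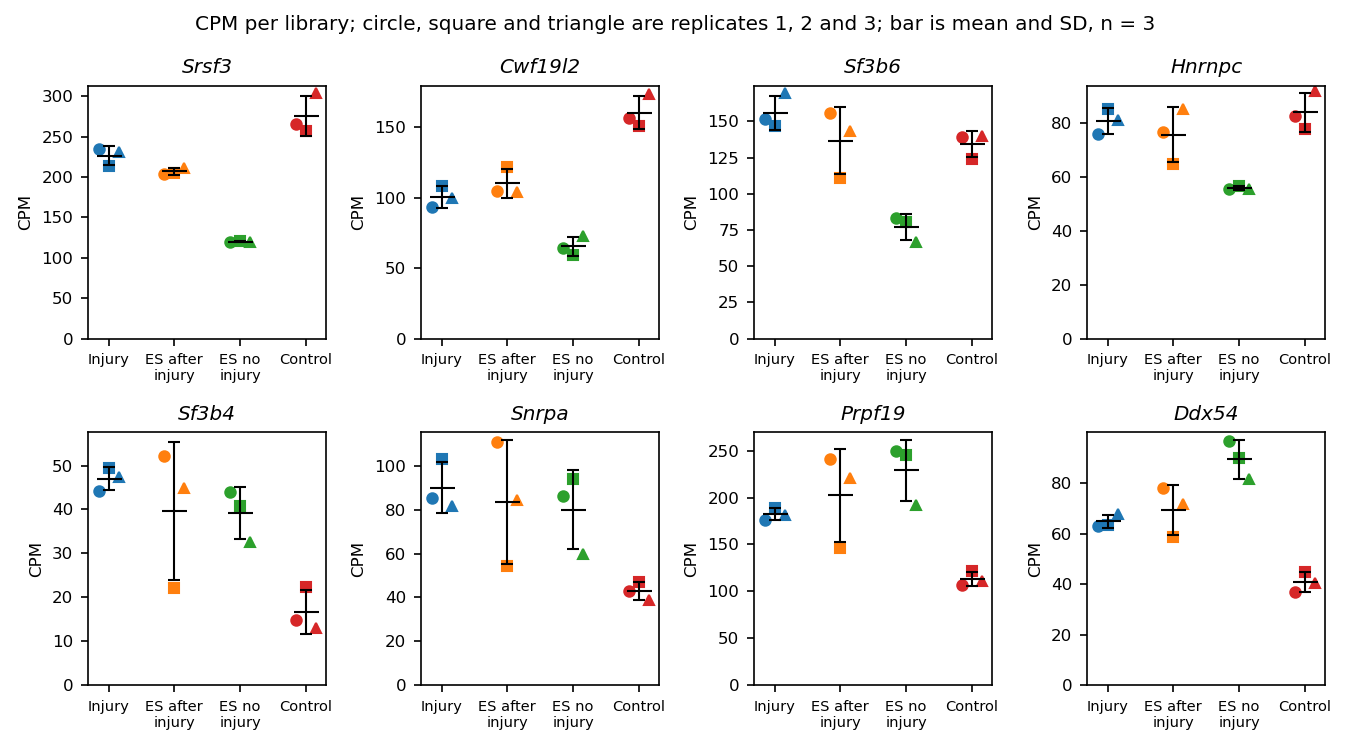
CPM of 8 splicing genes in every library (points; circle, square and triangle for replicates 1, 2 and 3), with the mean and SD of each group of 3 as bars, on linear axes that start at 0. In the upper row the libraries of ES without injury lie lowest in all 4 genes, and in the lower row the controls lie lowest, apart from Sf3b4 in replicate 2 of ES after injury, which lies among them.

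Among the tri-snRNP and catalytic proteins, 1 rose and 3 fell after injury, and 1 rose and 3 fell with ES without injury, of 11 tested. The called share was 36.4% in both comparisons, near the 31% and 29.8% of all intervals. The medians were -0.11 after injury and 0.05 with ES without injury. Cwf19l2, a Cwf19-like protein of late spliceosomes, had 93.1, 108 and 100.0 CPM after injury, 105, 122 and 104 CPM with ES after injury, 64.2, 59.0 and 72.8 CPM with ES without injury, against 157, 151 and 173 CPM in controls. Every library of the other groups lay below every control, and the 3 libraries of ES without injury lay below all the rest. The log2 fold changes were -0.67 ± 0.13 (adjusted p = 0.0024) after injury, -0.54 ± 0.13 (adjusted p = 0.011) with ES after injury and -1.29 ± 0.14 (adjusted p = 3.6e-05) with ES without injury. The call with ES after injury was lost without its replicate 3 or control 3, and the other calls held whichever library was left out. Cwf19l2 spans chr9:3403592-3479236 and was read through its own identifier over all its annotated exons.

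Prpf19, the ubiquitin ligase at the core of the Prp19 complex, had 176, 189 and 182 CPM after injury, 241, 147 and 220.5 CPM with ES after injury, 249.8, 246 and 192 CPM with ES without injury, against 107, 122 and 111 CPM in controls. All 9 libraries lay above the 3 controls. Its log2 fold changes were 0.69 ± 0.17 (adjusted p = 0.0068) after injury, 0.84 ± 0.17 (adjusted p = 0.0053) with ES after injury and 1.02 ± 0.17 (adjusted p = 0.00046) with ES without injury, and the middle call was lost without replicate 3 of ES after injury. Prpf19 was read at its 5′ end, through 417 exon bases of which 77 are coding and 188 lie in UTRs.

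Prpf18, a factor of the later catalytic step, had 6.88, 6.37 and 9.03 CPM after injury, 4.18, 13.7 and 7.92 CPM with ES after injury, 5.91, 9.04 and 8.52 CPM with ES without injury, against 12.6, 16.4 and 20.3 CPM in controls. Injury and ES without injury lay below all controls, and replicate 2 of ES after injury lay among the controls. The changes were -1.15 ± 0.34 (adjusted p = 0.018) after injury and -1.06 ± 0.34 (adjusted p = 0.024) with ES without injury, and both passed. The injury call was lost without control 3, injury 1 or injury 2, and the other without control 2, control 3 or replicate 1 of ES without injury. Prpf4b, a kinase that acts on tri-snRNP proteins, had 46.3, 41.5 and 48.6 CPM after injury, 44.2, 38.6 and 39.6 CPM with ES after injury, 32.5, 30.5 and 26.3 CPM with ES without injury, against 47.2, 43.8 and 53.1 CPM in controls. Its 3 libraries of ES without injury lay below the other 9, with -0.69 ± 0.15 (adjusted p = 0.002), and the call held with any library left out.

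Prpf38b, a Prp38 family protein, had 9.32, 8.29 and 10.00 CPM after injury, against 15.6, 18.4 and 13.9 CPM in controls. The groups did not overlap, and it fell by 0.80 ± 0.26 on the log2 scale (adjusted p = 0.029), a call lost without control 1 or 2 or when any of the injury libraries was left out. Prpf8, the scaffold of the catalytic centre, had log2 fold changes of -1.08 after injury and 1.02 with ES without injury from under 12 CPM in every library, and neither passed. Prpf6, which bridges the tri-snRNP, had 0.10 after injury and 0.29 with ES without injury. Cwc27, a cyclophilin-like spliceosome protein, had 0.28 and -0.21 in the same comparisons, and neither gene passed.

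Among the 12 regulators tested, 2 rose and 3 fell after injury, and none rose and 3 fell with ES without injury. These are 41.7% after injury and 25% with ES without injury, against 31% and 29.8% of all intervals. The medians were -0.06 after injury and -0.32 with ES without injury. Srsf3, an SR protein that also links splicing to mRNA export, had 235, 213 and 231 CPM after injury, 204, 205 and 211 CPM with ES after injury, 119.7, 120.3 and 119.8 CPM with ES without injury, against 266, 258 and 303 CPM in controls. The 4 groups did not overlap one another: ES without injury was lowest, then ES after injury, then injury, with controls highest. The log2 fold change was -1.20 ± 0.12 (adjusted p = 3.6e-05) with ES without injury, -0.41 ± 0.12 (adjusted p = 0.028) with ES after injury and -0.28 ± 0.12 (adjusted p = 0.087) after injury. The first held whichever library was left out, the second was lost without control 1, control 3 or replicate 1 or 3 of ES after injury, and the third did not pass. The counted part of Srsf3 lies at chr17:29041117-29041731, where 323 of its 525 bases are UTR.

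Rbm39, a U2AF-related regulator, had 32.6, 34.7 and 32.4 CPM after injury, 26.9, 65.6 and 41.7 CPM with ES after injury, 34.6, 35.5 and 48.8 CPM with ES without injury, against 65.5, 67.2 and 70.0 CPM in controls. Injury and ES without injury lay below all controls, whereas ES after injury ran from below the injury libraries to the lowest control. The changes were -1.02 ± 0.23 (adjusted p = 0.0045) after injury and -0.77 ± 0.23 (adjusted p = 0.019) with ES without injury, and the second was lost without control 3 or replicate 1 of the stimulated group. Rbm6, a splicing regulator encoded beside Rbm5, had 12.1, 10.9 and 10.8 CPM after injury, 10.5, 19.6 and 10.9 CPM with ES after injury, 12.2, 12.8 and 20.5 CPM with ES without injury, against 19.4, 26.2 and 22.8 CPM in controls. Injury lay below all controls, with -1.01 ± 0.26 (adjusted p = 0.0088), and the call held with any library left out. With ES without injury the value was -0.58 ± 0.26 (adjusted p = 0.099), with replicate 3 among the controls.

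Hnrnpc, which binds uridine tracts in nascent transcripts, had 75.9, 85.4 and 81.2 CPM after injury, 76.8, 65.0 and 85.4 CPM with ES after injury, 55.6, 56.9 and 55.6 CPM with ES without injury, against 82.6, 77.8 and 92.1 CPM in controls. ES without injury lay below the other 9 libraries, with -0.59 ± 0.14 (adjusted p = 0.0037), while injury overlapped controls, with -0.06 ± 0.14 (adjusted p = 0.78). Hnrnpr, another hnRNP and a neuronal mRNA-binding protein, had 13.8, 10.6 and 11.4 CPM after injury, 6.21, 7.29 and 4.84 CPM with ES after injury, 3.83, 7.28 and 3.98 CPM with ES without injury, against 5.65, 7.62 and 3.51 CPM in controls. The 3 injury libraries lay above the other 9, and the change was 1.09 ± 0.32 (adjusted p = 0.018), lost without control 1, control 3 or injury 1. Hnrnpll, an hnRNP that regulates exons in lymphocytes, had 6.32, 5.95 and 6.80 CPM after injury, against 11.5, 9.78 and 11.6 CPM in controls. The groups did not overlap, and the change was -0.79 ± 0.28 (adjusted p = 0.039), lost when any of the 6 libraries compared was left out.

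Rbm10, a regulator of exon skipping, had 55.6, 56.0 and 45.1 CPM after injury, against 32.5, 43.7 and 39.2 CPM in controls. The groups did not overlap, the change was 0.44 ± 0.16 (adjusted p = 0.045), and the call was lost when any of 9 libraries was left out. It was also lost in 8 of 9 alternative ways of processing, DESeq2 among them. Of 11 genes with Srsf symbols 4 could be tested. Those other than Srsf3 showed small values with ES without injury: -0.18 for Srsf6, -0.17 for Srsf10 and -0.14 for Srsf12 on the log2 scale. Srsf6 and Srsf10 were read through UTR bases alone. Through these intervals none of the 3 passed in any comparison, with adjusted p-values no lower than 0.40. Srsf6 passed after injury once a base content and length trend was removed, as described further on. A second interval of Srsf10, also given further on, passed with ES without injury.

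Of the 11 genes that match by symbol but work outside splicing or are little known, 3 rose and 1 fell after injury, and 3 rose and 1 fell with ES without injury. The share of 36.4% in each was near the background of 31% and 29.8%. The medians were 0.10 after injury and 0.26 with ES without injury. Ddx54, a nucleolar helicase, had 62.9, 63.5 and 67.9 CPM after injury, 78.0, 58.4 and 71.6 CPM with ES after injury, 96.6, 90.1 and 81.4 CPM with ES without injury, against 36.9, 44.8 and 40.5 CPM in controls. All 9 libraries lay above the 3 controls, and ES without injury lay above all the rest. The log2 fold changes were 0.67 ± 0.14 (adjusted p = 0.0034) after injury, 0.77 ± 0.14 (adjusted p = 0.0047) with ES after injury and 1.13 ± 0.14 (adjusted p = 9.8e-05) with ES without injury, and the middle call was lost without replicate 3 of ES after injury.

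Dhx34, a helicase of nonsense-mediated decay, had 11.9, 13.3 and 8.61 CPM after injury, 10.3, 7.83 and 7.56 CPM with ES after injury, 10.9, 12.02 and 8.68 CPM with ES without injury, against 6.21, 3.87 and 5.27 CPM in controls. Every library outside the controls lay above all controls, with 1.14 ± 0.27 (adjusted p = 0.0054) after injury, 1.04 ± 0.27 (adjusted p = 0.0079) with ES without injury and 0.74 ± 0.27 (adjusted p = 0.071) with ES after injury, the last not passing. The call with ES without injury was lost without its replicate 2. Ddx24, a nucleolar helicase, had 143, 188 and 189.8 CPM after injury, 193, 146 and 209 CPM with ES after injury, 206, 202 and 215 CPM with ES without injury, against 122, 146 and 133 CPM in controls. ES without injury lay above all controls, with 0.64 ± 0.16 (adjusted p = 0.0055), and the call held with any library left out. Injury overlapped the controls, with 0.38 ± 0.16 (adjusted p = 0.075). A second interval of Ddx24, given further on, passed after injury and not with ES without injury.

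Ddx28, which helps to assemble the mitochondrial ribosome, had 30.4, 31.0 and 31.1 CPM after injury, 32.7, 17.7 and 34.1 CPM with ES after injury, 29.5, 25.8 and 19.5 CPM with ES without injury, against 20.5, 16.7 and 15.1 CPM in controls. Injury lay above all controls, with 0.82 ± 0.23 (adjusted p = 0.013), a call lost without control 3. With ES after injury the value was 0.69 ± 0.23 (adjusted p = 0.048), a call lost when any of 10 libraries was left out and in 6 of 10 alternative ways of processing. Ddx6, a helicase of P-bodies and mRNA repression, had 3.44, 3.40 and 3.33 CPM after injury, 3.42, 9.11 and 6.498 CPM with ES after injury, 7.54, 6.17 and 16.7 CPM with ES without injury, against 11.9, 13.8 and 14.9 CPM in controls. Injury lay below all controls, with -1.99 ± 0.39 (adjusted p = 0.0021), and the call held with any library left out. Ddx6 was read through 147 exon bases. Rbm12b1, an RNA-binding protein, fell by 0.68 ± 0.20 on the log2 scale with ES without injury (adjusted p = 0.014), and not without control 3. Ddx58, the RIG-I sensor of viral RNA, had -0.19 after injury and 0.26 with ES without injury. Rbm28, a ribosome assembly factor read over nearly its whole annotated length, had 0.05 and 0.02. Neither passed, and the value of Rbm28 farthest from 0 in the 4 comparisons of 2 groups was 0.07 on the log2 scale.

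Whether the injury difference was the same with and without ES was tested directly, as the difference between ES after injury and ES without injury minus the difference between injury and control. Of the 47 genes, 10 passed (4 positive, 6 negative), 21.3% of the set against 19.2% of all intervals (6.86% positive, 12.3% negative) and 20.4% of those named by position. Cwf19l2 had an interaction of 1.43 ± 0.19 (adjusted p = 0.00085), Srsf3 of 1.07 ± 0.17 (adjusted p = 0.0017) and Ddx54 of -1.03 ± 0.20 (adjusted p = 0.004), and these 3 calls held whichever library was left out. For Cwf19l2 the injury difference was 0.75 ± 0.13 among stimulated libraries and -0.67 ± 0.13 among unstimulated ones. For Srsf3 it was 0.79 ± 0.12 and -0.28 ± 0.12, and for Ddx54 -0.37 ± 0.14 and 0.67 ± 0.14, in the same order. In each of these 3 genes the 2 differences have opposite signs.

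The interaction was -1.47 ± 0.36 (adjusted p = 0.012) for Sf3b4, -1.44 ± 0.37 (adjusted p = 0.016) for Dhx34 and 1.20 ± 0.33 (adjusted p = 0.02) for Rbm39. The first was lost without replicate 1 of ES without injury. The second was lost without that library, without replicate 2 of its group or without replicate 3 of ES after injury, and the third without control 3. For Sf3b4 the injury difference was 0.02 ± 0.25 with ES and 1.49 ± 0.26 without it. Without replicate 2 of ES after injury, the library that stood apart, 11 genes passed, 7 positive and 4 negative, so the balance of directions turned. The positive share of the calls over all intervals moved as well, from 35.7% to 48.7%. Over the set, 4 calls were left without replicate 1 of ES without injury, 5 without its replicate 2, without replicate 3 of ES after injury or without control 3, and 6 without control 1. Over all intervals 1245, 1126, 1446, 1296 and 1509 calls were left in the same order, against 2507 with all libraries. When libraries were scaled by their totals alone, the count of splicing genes was 7 positive and 6 negative, as it was with DESeq2. The positive share over all intervals was then 34.5% and 46.7%.

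**Figure D3:**
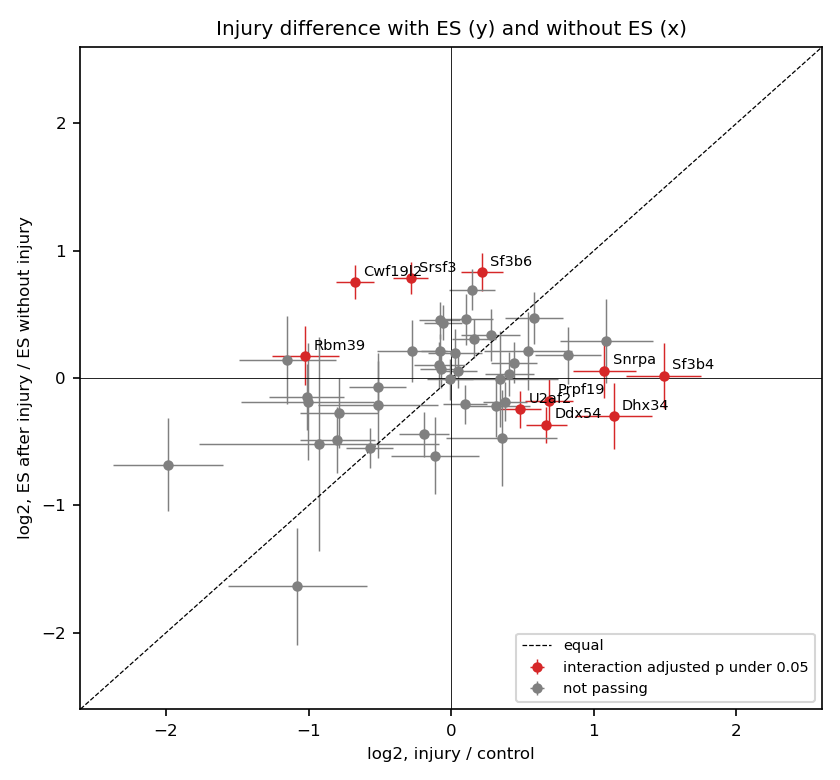
Log2 difference of injury among stimulated libraries (vertical axis, ES after injury over ES without injury) against that among unstimulated libraries (horizontal axis, injury over control) for the 47 splicing genes, with SE bars and the line of equal differences. The 10 genes whose interaction passed are in red: Cwf19l2, Srsf3, Sf3b6 and Rbm39 lie above the line, and Sf3b4, Dhx34, Snrpa, Ddx54, Prpf19 and U2af2 below it.

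The direction of change went with the base content of the counted exons. Across the 47 genes, Spearman's rho between log2 fold change and G and C content was 0.65 with ES without injury, 0.52 after injury, 0.57 with ES after injury against controls and -0.03 with ES after injury against injury. Across all 4769 named intervals rho was 0.51, 0.28, 0.32 and -0.03 in the same comparisons. These are descriptions across genes of the same 12 libraries. With ES without injury, the 13 genes at 50% or more had 5 higher and 0 lower, and the 24 genes under 45% had 1 higher and 10 lower. After injury the same 13 genes had 7 higher and 1 lower, and the 24 had 1 higher and 6 lower. The counted bases of the splicing genes had a median of 44.8%, against 49.1% for all named intervals.

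When a smooth trend of counts with G and C content and length was removed from each library, the number of calls with ES without injury was 9, of which 7 were higher and 2 lower, against 17 before, of which 7 were higher and 10 lower. Over all intervals the calls fell from 3896 to 2513, with 60.9% of them higher before and 63.9% after. Of the splicing genes, 6 were called both ways. The 6 were Cwf19l2, Ddx24, Ddx54, Prpf19, Sf3b4 and Srsf3. Srsf3 then had -0.58 ± 0.11 (adjusted p = 0.0026) and Cwf19l2 -0.67 ± 0.13 (adjusted p = 0.0023), and 11 genes no longer passed, Sf3b6, Hnrnpc and Prpf4b among them. The calls of Cwf19l1 (1.16), Ddx58 (0.51) and Prpf8 (1.50), all higher, were new. After injury 17 genes were called and 11 of the 18 remained: Cwf19l2, Ddx28, Ddx6, Dhx34, Hnrnpr, Prpf19, Prpf40b, Rbm39, Rbm6, Sf3b4 and Snrpa. The rest were new: Cwc27 (0.62), Ddx24 (0.54), Rbm8a (0.47), Sf3b6 (0.45) and Srsf6 (0.44) were higher, and Rbm33 (-0.68) was lower. Over all intervals the calls after injury went from 4046 to 3343. With ES after injury against controls 4 of 7 remained, namely Ddx54, Prpf19, Sf3b4 and Snrpa. Ddx24 (0.60) and Prpf40b (-0.60) were new there, and all intervals had 1497 calls against 2247. Of the 10 interactions, those of Cwf19l2 and Sf3b4 remained, at 0.83 ± 0.18 (adjusted p = 0.013) and -1.74 ± 0.39 (adjusted p = 0.015). The interaction of Ddx24 was new, at -0.84 ± 0.22 (adjusted p = 0.028), and all intervals had 1142 against 2507. Base content and the role of a gene in the cell cannot be told apart by this step, which removes whatever goes with base content.

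**Figure D4:**
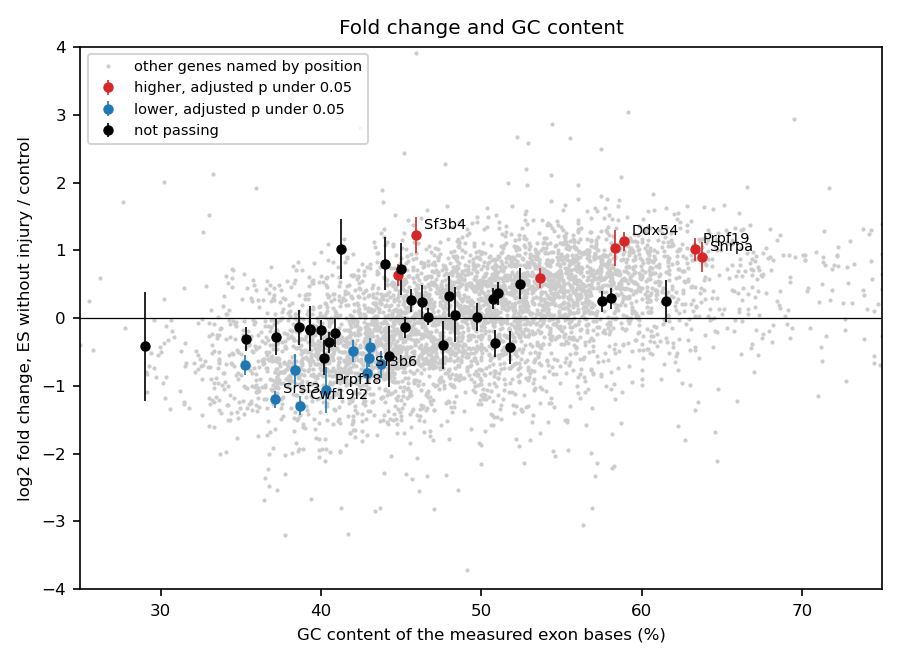
Log2 fold change with ES without injury over control (vertical axis) against the G and C content of the counted exon bases in percent (horizontal axis), with SE bars for the 47 splicing genes and grey points for other genes named by position. Red genes (higher) lie mostly to the right and blue genes (lower) to the left of 45%.

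For 11 of the genes more than 1 interval could be tested, and these give the same gene a reading from other exons. Both intervals of Ddx54 were higher with ES without injury, by 1.13 ± 0.14 and 1.16 ± 0.18 on the log2 scale, and after injury by 0.67 ± 0.14 and 0.64 ± 0.18. Both intervals of Rbm39 were lower, with log2 fold changes of -1.02 ± 0.23 and -0.63 ± 0.16 after injury and -0.77 ± 0.23 and -0.94 ± 0.16 with ES without injury. All 8 of these values passed. The second interval of Ddx54 did not pass after injury without control 3 or injury 2, with libraries scaled by their totals alone, with no filter on low counts or with the base content and length trend removed. Neither value of the second interval of Rbm39 passed with that trend removed.

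The intervals of other genes differed. Snrpc, the U1 snRNP protein that helps U1 to pair with the 5′ splice site, did not pass through its main interval of 3.74 mean CPM. Its second interval, with 51.6 mean CPM, was higher by 1.18 ± 0.21 after injury (adjusted p = 0.0013) and by 0.87 ± 0.21 with ES without injury (adjusted p = 0.0041). Ddx46 had -0.08 ± 0.13 after injury through its main interval and -1.54 ± 0.30 through its second. Ddx24 passed with ES without injury alone through its main interval. Its second had 0.70 ± 0.20 (adjusted p = 0.015) after injury and 0.76 ± 0.20 (adjusted p = 0.017) with ES after injury against controls. With ES without injury that interval had 0.49 ± 0.20 (adjusted p = 0.074), which did not pass. Srsf10 had -0.17 ± 0.19 with ES without injury through the main interval and -0.90 ± 0.21 through its second, which passed (adjusted p = 0.0042) and no longer did with the base content and length trend removed. Hnrnpr was higher after injury through its main and second intervals, by 1.09 ± 0.32 and 0.70 ± 0.18, and had -0.19 ± 0.18 through another interval. Which transcripts of these genes each interval counts was not tested.

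**Figure D5:**
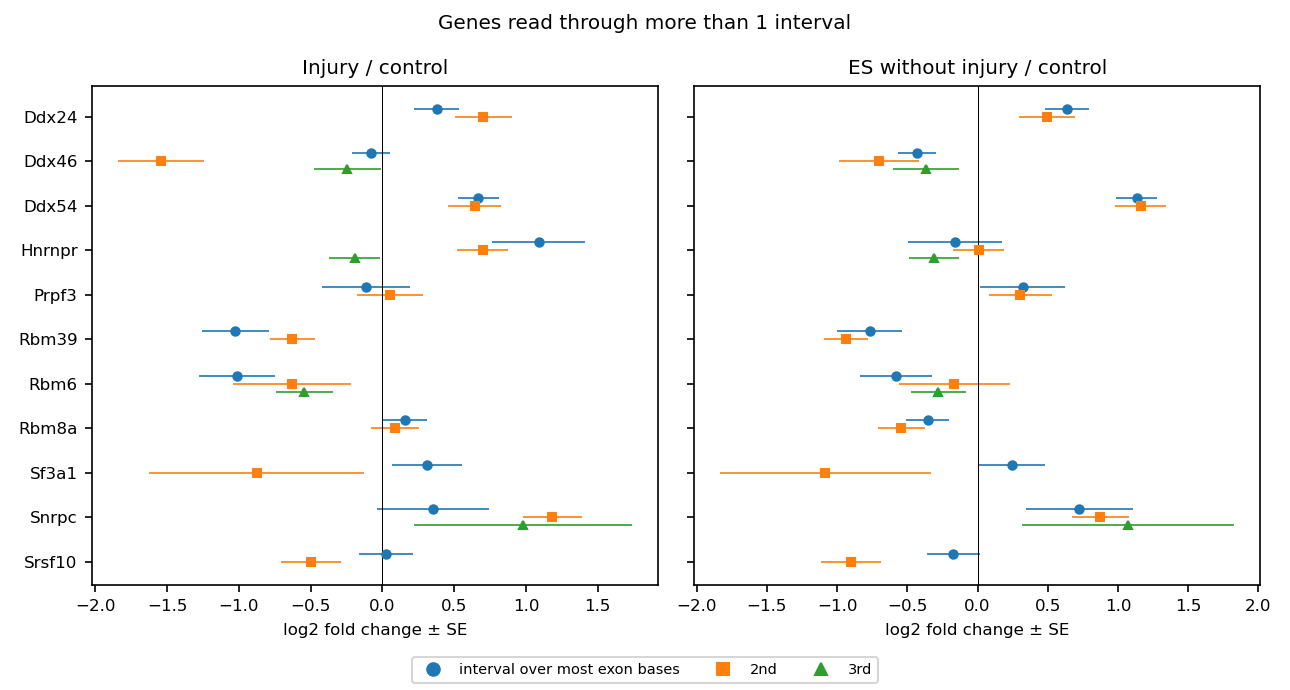
Log2 fold change (horizontal axis, ± SE) of the 11 splicing genes that were read through more than 1 interval, after injury against control (left) and with ES without injury against control (right). The intervals of Ddx54 and Rbm39 lie on the same side of 0, whereas those of Ddx46, Hnrnpr and Srsf10 lie apart after injury.

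Other splicing genes, listed by role and outside the symbols above, also moved both ways. Of 16 tested SR kinases and coactivators, 1 rose and 4 fell after injury, and 4 rose and 5 fell with ES without injury, with medians of -0.47 and -0.17. The called share was 31.2% after injury and 56.2% with ES without injury, against 31% and 29.8% of all intervals. Over all 8 lists it was 36.6% and 40.8% of 71 genes. Clk1, a kinase that phosphorylates SR proteins, had 10.3, 7.86 and 9.86 CPM after injury, 6.47, 12.8 and 14.2 CPM with ES after injury, 6.96, 8.16 and 9.87 CPM with ES without injury, against 17.0, 18.7 and 19.8 CPM in controls. It lay at -0.98 ± 0.27 (adjusted p = 0.011) after injury and -1.14 ± 0.27 (adjusted p = 0.0038) with ES without injury on the log2 scale. Srrm2, a large SR-related coactivator, fell by 1.81 ± 0.41 on the log2 scale after injury (adjusted p = 0.0047). Srrm3, which promotes microexons in neurons, rose by 0.86 ± 0.22 (adjusted p = 0.0083) with ES without injury, and did not pass without replicate 1 or 2 of that group. The call of Clk1 after injury was lost without injury 2.

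Of 16 tested neuronal and tissue splicing regulators, 6 rose and 1 fell after injury, and 5 rose and none fell with ES without injury, with medians of 0.43 and 0.32. The called share was 43.8% after injury, against 31% of all intervals, and 31.2% with ES without injury, against 29.8%. Pcbp3, a poly(C)-binding protein, had 91.95, 122 and 117 CPM after injury, 163, 91.4 and 136 CPM with ES after injury, 176, 173 and 136 CPM with ES without injury, against 66.7, 78.0 and 55.0 CPM in controls. Its changes were 0.73 ± 0.20 (adjusted p = 0.012) after injury and 1.28 ± 0.20 (adjusted p = 0.00031) with ES without injury. Elavl3, a neuronal Elav protein, rose by 0.58 ± 0.18 (adjusted p = 0.024) with ES without injury, and the Y-box protein Ybx1 rose by 0.88 ± 0.18 (adjusted p = 0.0028) after injury. Pcbp3 did not pass after injury without control 3 or injury 2, and Elavl3 did not pass without control 1 or 3 or without replicate 1 or 2 of ES without injury. The other calls with ES without injury were Khsrp, Raly and Khdrbs1, all higher. The call of Khsrp held with any library left out, and those of Raly and Khdrbs1 did not. Celf1 fell after injury. Celf2 did not pass with ES without injury, at 38.6, 34.1 and 52.2 CPM against 48.1, 56.4 and 51.3 CPM in controls. The list mixes neuronal regulators with others, and a rise of neuronal regulators as a class was not tested. Sensory neuron marker sums were also higher in both groups than in controls, as given above, and their part in these values was not tested.

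The lists that follow are small, and their counts stand against a background of 31% of all intervals after injury and 29.8% with ES without injury. Of 7 tested exon junction and decay factors, 2 rose and 1 fell after injury, and 3 rose and none fell with ES without injury, with medians of 0.25 and 0.53. Upf1, the central helicase of nonsense-mediated decay, had 110.03, 119 and 101 CPM after injury, 93.0, 95.3 and 113 CPM with ES after injury, 149, 155 and 157 CPM with ES without injury, against 78.2, 90.9 and 61.0 CPM in controls. It rose by 0.52 ± 0.15 (adjusted p = 0.015) after injury and 1.01 ± 0.15 (adjusted p = 0.00024) with ES without injury, and the injury call was lost without control 3, injury 2 or replicate 1 of ES without injury. Of 8 tested tri-snRNP and Lsm proteins, 1 rose and 0 fell after injury, and 3 rose and 2 fell with ES without injury, with medians of 0.22 and -0.07. Lsm8, of the ring that binds U6 RNA, had -0.82 ± 0.13 (adjusted p = 0.00029) with ES without injury, and Eftud2, the U5 GTPase, had 0.66 ± 0.17 (adjusted p = 0.007). Of 8 Prp19 and later step proteins, 3 rose and 2 fell after injury, and 1 rose and 1 fell with ES without injury, with medians of 0.31 and 0.03. Syncrip, an hnRNP-like protein, fell in both comparisons, with log2 fold changes of -0.41 after injury and -0.80 with ES without injury, and the injury call was lost when any of the 6 libraries compared was left out. Of 6 cleavage and polyadenylation factors, 2 rose and 1 fell in each of these comparisons, with medians of 0.03 after injury and 0.39 with ES without injury. Of 3 FET and paraspeckle proteins, 1 rose after injury and 2 with ES without injury, with medians of 0.62 and 0.52. Cirbp, a cold-inducible RNA-binding protein, rose in both, by 1.04 and 0.67. Of 7 export and cap-binding factors, 1 rose after injury and 0 passed with ES without injury, with medians of 0.00 and 0.10. With ES after injury, 0 of the 71 genes of these 8 lists passed against injury in edgeR, against 1.54% of all intervals. There 7 genes were under an unadjusted p of 0.05, and 0 passed in DESeq2.

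Of the named genes outside the symbols, several lost a call once the base content and length trend was removed. These were Lsm8, Eftud2, Srrm3 and Syncrip with ES without injury, and Syncrip and Upf1 after injury. With the replicate block as well, Cirbp with ES without injury and Pcbp3 after injury were also lost.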

How the data were processed

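The authors deposited whole-number read counts for 56941 gene identifiers in each of 12 libraries. Per the file headers, featureCounts 2.0.6 counted single reads without strand in Ensembl 110 gene models of GRCm39, with a read allowed in several overlapping genes, so genes that overlap on opposite strands are not separated. The headers of control 1, 2 and 3 name alignments C2, C3 and C4, while those of the other groups carry the numbers of their labels; samples follow the deposited labels. The submitters' processing notes list Salmon 1.10.2, FastQC and DESeq2. The aligner version and alignment build were not given in the sources used here. Intervals over GRCm38 exons of GENCODE M21 hold the reads, and genes were named by that position. Sets and lists were chosen with earlier results of these data known. Counts were fitted over all 12 libraries with edgeR 4.0.16 (filterByExpr, TMM, robust quasi-likelihood, R 4.3.3), with Benjamini-Hochberg adjustment over 13053 intervals and a threshold of 0.05. The biological coefficient of variation was 0.235. The fit was tested on simulated data with known changes. Printed CPM of single genes are TMM-scaled, whereas the marker sums and the medians given for the naming were scaled by library totals alone. The precision of all of them is limited by 7952798 to 10751547 counts a library. Named genes were, in each comparison, up to 6 highest and 6 lowest calls without overlap, up to 6 interactions, 2 genes a family by CPM and 3 genes a list by p; other named genes were chosen after their values were seen. Alternatives were DESeq2 1.42.0, other scalings, no filter, a replicate block, removal of a base content and length trend (mgcv 1.9.3), only the groups compared, a minimum of 300 exon bases, summed intervals, and leaving out each library. Sham-stimulated mice are described by the submitters, and no library analysed here is labelled so.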

Additional observations from a re-analysis of the deposited data

Results flagged for a closer look

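The injury difference with ES differed from that without ES in 10 splicing genes by the interaction test in edgeR. Each value is the log2 difference of ES after injury from ES without injury, minus that of injury from control (n = 3 libraries a group). The injury difference was the more positive among stimulated libraries for Cwf19l2 (1.43), Rbm39 (1.20), Srsf3 (1.07) and Sf3b6 (0.62). It was the more negative for Sf3b4 (-1.47), Dhx34 (-1.44), Ddx54 (-1.03), Snrpa (-1.01), Prpf19 (-0.86) and U2af2 (-0.73). For comparison, 19.2% of all tested intervals passed the same test. Only Cwf19l2 and Sf3b4 of these 10 also passed once the base content and length trend was removed.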

How the results depend on the processing

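No log2 fold change of a called splicing gene changed sign under any alternative that was run. The second interval of Rbm8a, with a log2 fold change of -0.54 with ES without injury, had 0.089 with the base content and length trend removed and 0.085 with the replicate block as well. Counts of called genes that moved by over 1.5 times were as follows. With the base content and length trend removed, ES without injury against control had 9 calls against 17, and the interaction 3 against 10; with the replicate block as well, injury had 11 against 18, ES without injury 7, ES after injury against control 2 against 7, and the interaction 2. ES after injury against control had 11 calls with no filter on low counts and 11 with DESeq2. Over all intervals these were 2301 and 2764, against 2247. With the trend removed, all intervals had 2513 calls against 3896 for ES without injury and 1142 against 2507 for the interaction. With the replicate block as well, they had 2810 against 4046 for injury and 2042 for ES without injury. For ES after injury against control they then had 924, and for the interaction 659. Leaving out 1 library gave 11 to 21 calls for injury, 12 to 19 for ES without injury, 0 to 20 for ES after injury against control, 4 to 11 for the interaction and 0 to 0 for ES after injury against injury. Over all intervals the ranges were 2465 to 4847, 2640 to 4593, 11 to 4349, 1126 to 3407 and 5 to 338 in the same order. The cause was not tested.

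The groups share replicate numbers, and same-numbered libraries deviated together with correlations of -0.26 to 0.20. With 3 libraries a group these values cannot tell whether a number marks a shared batch. With the number as a replicate block, injury had 15 calls, ES without injury 17, ES after injury against control 7, the interaction 9 and ES after injury against injury 0. Over all intervals the block gave 3600, 3542, 1802, 1915 and 157 calls in that order. By log CPM, not every library lay nearest to one of its own number among the other groups. Replicate 3 of ES after injury and replicate 1 of ES without injury were nearest to each other, at r = 0.965. Control replicate 2 and replicate 2 of ES after injury, which share a number, were also nearest to each other, at r = 0.969.

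Depth limits the low genes most: 11 of the 47 averaged under 10 CPM. The naming limits which exons are read, with a median of 591 bp, and 118 of the 173 genes were not analysed here. Isoforms were not measured, and wound, anaesthesia and analgesic cannot be told apart in the injury comparison, nor stimulation and isoflurane in the other.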

Other observations

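Across the 18 splicing genes called after injury, single libraries were placed on a scale from the control mean (0) to the injury mean (1). Replicates 1, 2 and 3 of ES after injury had median positions of 1.098, 0.289 and 0.94, and those of ES without injury had 0.93, 0.84 and 0.33. Replicate 2 of ES after injury was nearer to injury for 5 of the 18 genes, against 17 and 16 for the other libraries of its group. Replicate 3 of ES without injury was nearer to injury for 7, against 14 and 14. Ddx6 shows it in 1 gene, with 3.42, 9.11 and 6.498 CPM with ES after injury and 7.54, 6.17 and 16.7 CPM with ES without injury, against 11.9, 13.8 and 14.9 CPM in controls. The genes were chosen from the injury comparison, so these positions are a description of the stimulated libraries with no test.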
